A study of Rattus norvegicus with 3 samples.

Results

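Of 15168 genes with a matched probe, 7 make up the group described here: the monocarboxylate carriers Slc16a1 and Slc16a3, their membrane chaperones Bsg and Emb, and the glucose carriers Slc2a1, Slc2a3 and Slc2a4. They were chosen from these same data for the large differences of Slc16a3 and Emb across the 3 arrays. Their values are therefore a description in every comparison and carry no test. All 7 were on the arrays with 1 probe each, and all 7 entered every comparison. RNA of 12-week-old male rats of the Wistar Honnover background was measured on 3 one-colour Agilent arrays, 1 a group. The denervated soleus was taken 28 days after the left sciatic nerve had been transected over about 5 mm in the gluteal region. The normal plantaris and the normal soleus came from untreated rats, and how many rats each array stands for is not stated in the sources used here. The array of the normal soleus carries a title that names no muscle and was placed by its source name.

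Lactate leaves and enters muscle fibres together with a proton through monocarboxylate carriers. MCT1, the product of Slc16a1, is known from oxidative fibres and takes lactate up, while MCT4, the product of Slc16a3, is known as the lactate exporter of glycolytic fibres. Neither reaches the cell surface without a chaperone of the immunoglobulin superfamily: basigin (Bsg) accompanies MCT1 and MCT4, and embigin (Emb) is best known as a partner of MCT2, the product of Slc16a7. Glucose enters through GLUT4 (Slc2a4), which moves to the surface on insulin or contraction, and through GLUT1 (Slc2a1), which serves basal uptake, while GLUT3 (Slc2a3) is best known from neurons. The soleus is a slow postural muscle rich in oxidative fibres, and the plantaris is a faster neighbour.

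The genes that moved together in the denervated soleus, both chaperones upward and both lactate carriers downward, are shown by the 250 bases before their annotated starts, read 5′ to 3′ on the strand of the gene. Capitals mark CANNTG, the general form of the E-box, and whether myogenic factors read the marked sites was not tested. The sequences are from RefSeq on GRCr8, at chr2:50803218-50803467 on the plus strand for Emb, chr7:10651006-10651255 on the minus strand for Bsg, chr10:106712078-106712327 on the plus strand for Slc16a3 and chr2:194812410-194812659 on the plus strand for Slc16a1.
Emb: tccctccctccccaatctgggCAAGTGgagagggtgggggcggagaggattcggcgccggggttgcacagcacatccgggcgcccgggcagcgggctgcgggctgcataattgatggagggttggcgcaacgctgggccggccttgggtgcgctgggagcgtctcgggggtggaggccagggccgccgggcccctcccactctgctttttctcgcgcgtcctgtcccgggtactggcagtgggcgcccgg
Bsg: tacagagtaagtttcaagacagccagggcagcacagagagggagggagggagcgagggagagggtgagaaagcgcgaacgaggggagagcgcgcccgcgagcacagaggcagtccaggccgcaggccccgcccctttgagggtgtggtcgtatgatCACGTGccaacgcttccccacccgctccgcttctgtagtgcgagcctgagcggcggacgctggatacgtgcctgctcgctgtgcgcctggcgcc
Slc16a3: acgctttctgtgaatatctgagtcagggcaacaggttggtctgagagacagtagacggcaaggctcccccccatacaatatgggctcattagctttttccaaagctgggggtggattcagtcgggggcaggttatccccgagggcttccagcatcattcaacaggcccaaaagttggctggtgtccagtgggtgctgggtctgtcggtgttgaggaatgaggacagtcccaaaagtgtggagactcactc
Slc16a1: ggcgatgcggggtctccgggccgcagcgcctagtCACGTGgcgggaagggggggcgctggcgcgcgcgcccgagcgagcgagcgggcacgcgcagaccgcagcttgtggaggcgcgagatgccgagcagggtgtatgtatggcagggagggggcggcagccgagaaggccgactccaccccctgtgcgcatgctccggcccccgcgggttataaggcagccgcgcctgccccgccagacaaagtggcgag
The table held 5 of the 7 genes, and other start sites of these genes were not examined. CANNTG stood once in the windows of Emb, Bsg and Slc16a1 and 0 times in that of Slc16a3, and 65.5% of 33469 such windows held it. ACGTG, the core of the hypoxia response element, was searched on both strands, so that 1 CACGTG, which is also a CANNTG, counts as 2 matches. It was found 0 times for Emb, 3 times for Bsg, 2 times for Slc16a1 and 0 times for Slc16a3, and 16.6% of the windows held it. GGGCGG, the GC box, was found 1 time each for Emb, Bsg and Slc16a1 and 0 times for Slc16a3, and 30.5% of the windows held it. The GC content was 72.0% for Emb, 66.4% for Bsg and 74.0% for Slc16a1, while the 54.0% of Slc16a3 lay nearer the median of 51.2% over all windows. For Slc2a1, whose window lies at chr5:138002272-138002521 on the plus strand, the GC content was 68.4%, with 0 CANNTG, 1 ACGTG and 3 GGGCGG.

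Signals are given as the scanner's processed signal of each spot, an intensity in arbitrary units. Before arrays were compared, each was centred on its own 75th percentile in log2 units, which stood at a signal of 1217 on the denervated soleus array, 744 on the plantaris array and 903 on the normal soleus array. Folds are differences of log2 levels, where 1 unit means 2-fold, and the error after ± combines the scanner software's errors of the 2 signals. That error covers the measurement and nothing between animals, and with 1 array a group there is no p-value. The denervated array lay on another slide and in another scan than the 2 normal arrays, and the effects of denervation, slide and scan cannot be told apart. In whole muscle, fewer cells of a type and less RNA per cell cannot be told apart. The share of probes well above background ran from 64.2% to 67.0%, and 0 spots were saturated. Acta1, Ckm and Des, genes of skeletal muscle fibres, were well above background on all 3 arrays, while Ttn and Ryr1 had no matched probe.

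**Figure D1:**
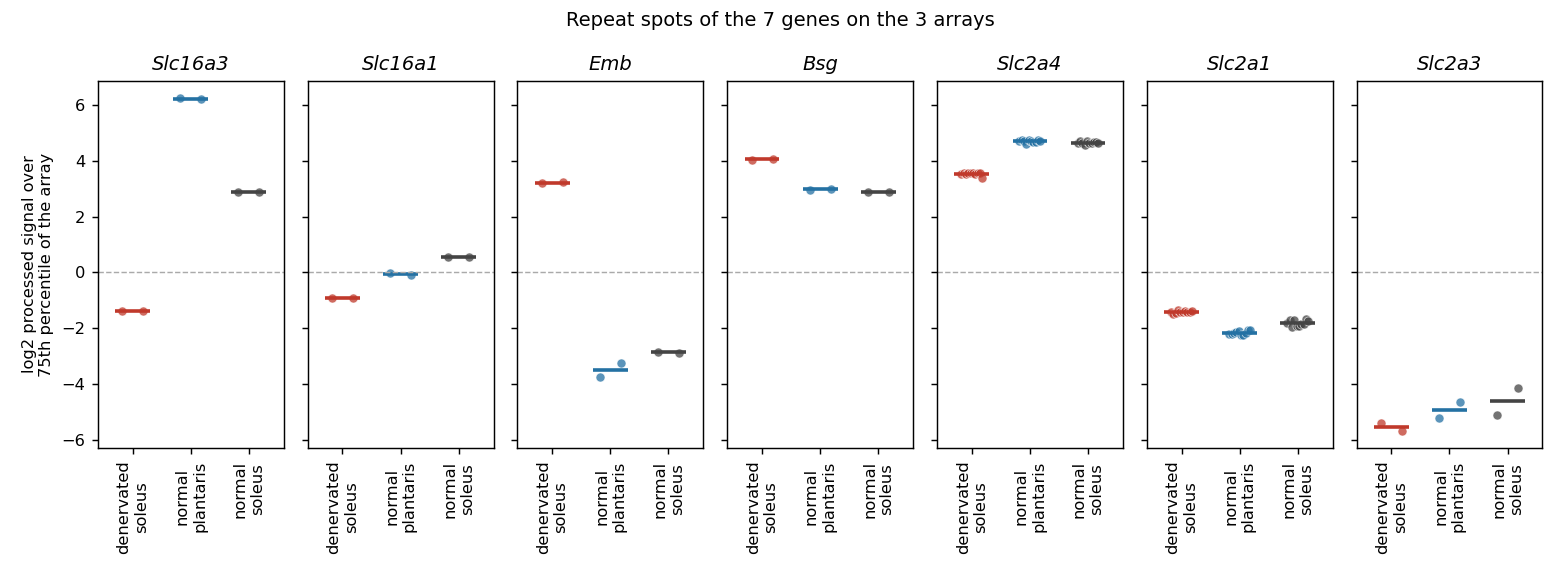
Log2 processed signal of every repeat spot of the 7 genes (points; bars are means), each array centred on its 75th percentile (dashed line at 0), in denervated soleus, normal plantaris and normal soleus. For Slc16a3 the fold of denervated soleus over plantaris is -7.62, and for Emb that of denervated over normal soleus is 6.09. Heights compare arrays within a gene and do not rank genes, since probes differ in brightness.

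In the denervated soleus the lactate carriers were lower and both chaperones were higher than in the normal soleus. Over all 11318 genes measured in that comparison, 8.73% were higher by 2-fold or more and 13.4% were lower by as much, with a median of 0.02. Of the 7 genes, 2 were higher by that rule, 3 lower and 2 within 2-fold, with a median of -0.92. Since the genes were chosen on signals of all the arrays, nothing is read from their count in this or the other comparisons. With the authors' deposited values in place of the centred signals, the share of higher genes among those past 2-fold was 58.6% instead of 39.4%, as the median of all genes then stood at 0.26.

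Slc16a3 had the largest fold of the carriers measured here. Its spots read 461 and 469 in denervated soleus, 54867 and 57141 in plantaris, and 6582 and 6690 in normal soleus. The 3 muscles were fully separated, with plantaris highest and denervated soleus lowest. The fold of denervated over normal soleus was -4.27 ± 0.20, which is 19.2-fold lower and leaves 5.20% of the normal level. It was the 23rd lowest fold of the 11318 genes.

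Slc16a1 was lowest in the denervated soleus too. Its spots read 638 and 645 in denervated soleus, 701 and 725 in plantaris, and 1314 and 1329 in normal soleus. On the centred scale the order was normal soleus, plantaris, denervated soleus, with no overlap of spots. Denervated over normal soleus gave a fold of -1.47 ± 0.20, or 36.0% of the normal level. The fall of Slc16a3 was thus deeper by 2.79 ± 0.29 log2 units than that of Slc16a1, a difference many times the measurement error.

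Emb stood at the other end. Its spots read 11287 and 11388 in denervated soleus, 54.9 and 77.6 in plantaris, and 123 and 125 in normal soleus. In both normal muscles the gene was dim though well above background, and in the denervated soleus it was bright. The fold of denervated over normal soleus was 6.09 ± 0.21, which is 68.0-fold higher and the 3rd highest of 11318 genes.

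Bsg, the usual partner of both carriers, moved the same way as Emb and much less. Its spots read 19974 and 20401 in denervated soleus, 5806 and 5947 in plantaris, and 6673 and 6688 in normal soleus. The denervated soleus stood above both normal muscles, whose centred levels differed by less than the measurement error. Denervated over normal soleus gave a fold of 1.16 ± 0.20, or 2.24-fold higher. Emb exceeded Bsg in its fold by 4.92 ± 0.30 log2 units. Set against the carriers, the fold of Slc16a1 lay 2.64 ± 0.29 units under that of Bsg and the fold of Slc16a3 5.43 ± 0.29 units under it. Chaperone and carrier messages therefore moved in opposite directions on the same array.

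Nptn, the remaining member of the basigin family and known at synapses, differed by 0.24 ± 0.20 between denervated and normal soleus. Its 2 other probes gave 0.25 and -0.18. Slc16a7, whose product MCT2 is the partner of embigin, was faint. Its fold was -0.81 ± 0.25 in denervated over normal soleus, which is inside 2-fold and opposite in sign to Emb.

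Slc2a4 was lower in the denervated soleus. Its 10 spots ran from 12823 to 14472 with a median of 14252 in denervated soleus, from 18134 to 20150 with a median of 19452 in plantaris, and from 21341 to 23646 with a median of 22701 in normal soleus. The spots of the denervated soleus lay below those of both normal muscles, and those of plantaris and normal soleus overlapped on the centred scale. The fold of denervated over normal soleus was -1.11 ± 0.20, or 46.2% of the normal level. It fell inside 2-fold with quantile normalization (-0.78) and with the authors' deposited values (-0.87).

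Slc2a1, the basal glucose carrier, was slightly higher. Its 10 spots ran from 436 to 476 with a median of 456 in denervated soleus, from 155 to 178 with a median of 166 in plantaris, and from 235 to 285 with a median of 251 in normal soleus. No spots of any muscle overlapped on the centred scale, and the order was denervated soleus, normal soleus, plantaris. The fold of denervated over normal soleus was 0.40 ± 0.21, inside 2-fold. The folds of Slc2a1 and Slc2a4 lay 1.52 ± 0.29 log2 units apart, with the basal carrier the higher of the 2.

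Slc2a3 was near the limit of detection. Its spots read 23.5 and 28.9 in denervated soleus, 20.0 and 29.9 in plantaris, and 26.1 and 51.2 in normal soleus, and 1 of the 2 spots of the denervated array was not well above background. The fold of denervated over normal soleus was -0.92 ± 0.42. With an SD of up to 0.69 log2 units between its repeat spots, no order of the 3 muscles is read from it.

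In plantaris over normal soleus, Slc16a3 alone among the 7 genes passed 2-fold. Over all 11015 genes measured there, 5.71% were higher by 2-fold or more and 6.11% lower. Slc16a3 was higher by 3.36 ± 0.20, or 10.2-fold, the 32nd highest fold of that comparison. Slc16a1 went the other way, at -0.61 ± 0.20, with no overlap of spots. The 2 lactate carriers were thus 3.97 ± 0.29 log2 units apart between plantaris and soleus. The remaining genes were all within 2-fold. Emb was at -0.64 ± 0.23, Slc2a1 at -0.34 ± 0.21, Slc2a3 at -0.30 ± 0.37, Bsg at 0.09 ± 0.20 and Slc2a4 at 0.06 ± 0.20. The folds of Bsg, Slc2a3 and Slc2a4 were smaller than their errors, and each turned sign under at least 1 alternative processing.

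Denervated soleus over plantaris shares its arrays with the other comparisons and, for genes measured on both arrays, is their difference, so it adds no separate evidence. Over all 11371 genes measured there, 12.0% were higher by 2-fold or more and 16.7% lower. Slc16a3 differed by -7.62 ± 0.20, which is 197-fold lower and the 3rd lowest fold. Emb was higher by 6.73 ± 0.22, or 106-fold, the 4th highest. Bsg was at 1.07 ± 0.20 and Slc2a4 at -1.17 ± 0.20. Slc16a1 was at -0.86 ± 0.20, Slc2a1 at 0.74 ± 0.21 and Slc2a3 at -0.62 ± 0.43, all inside 2-fold. The authors' deposited values put 66.9% instead of 41.8% of the genes past 2-fold on the higher side, with a median of 0.36 over all genes, and put Slc2a1 at 1.10 and Slc2a4 at -0.82.

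**Figure D2:**
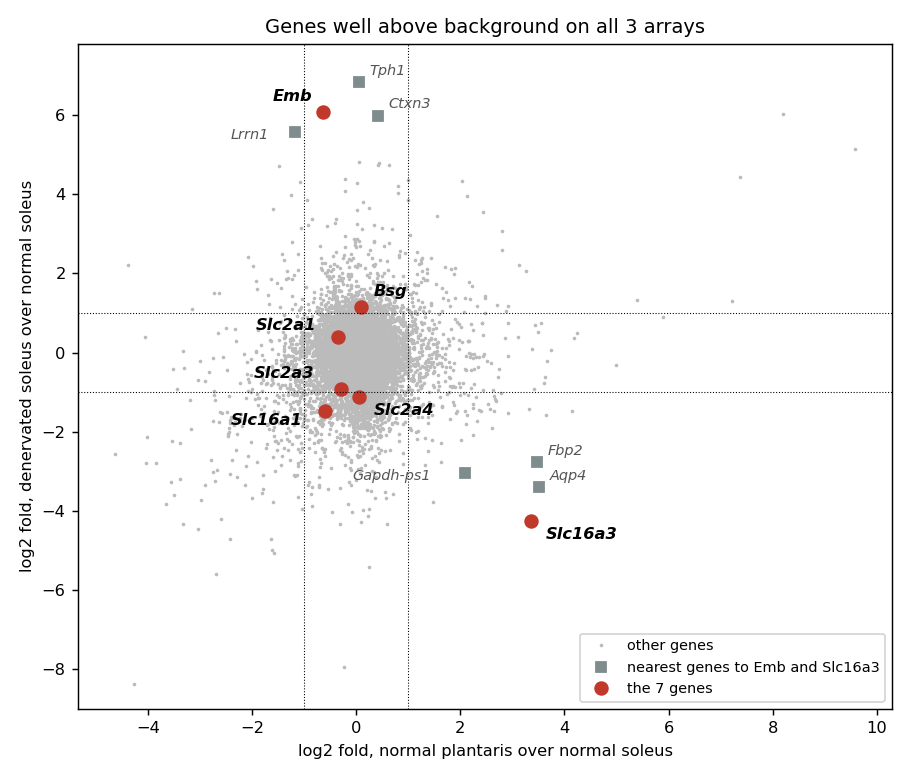
Each point is 1 of 9855 genes well above background on all 3 arrays, placed by its log2 fold of plantaris over normal soleus (horizontal) and of denervated over normal soleus (vertical); dotted lines mark 2-fold. Slc16a3 lies at the lower right (3.36 and -4.27) and Emb at the top (-0.64 and 6.09), both away from the mass of genes, while the other 5 of the 7 genes lie in or at the edge of it.

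Slc16a3 combined a higher level in the fast muscle with a lower level after denervation. Among 9855 genes well above background on all 3 arrays, 74 (0.751%) were past 2-fold both upward in plantaris and downward in denervated soleus, each against normal soleus. Ordered by the smaller of the 2 sizes, Slc16a3 came 2nd of these. Aqp4, the water channel of fast fibres, came first, at -3.40 for denervated soleus and 3.51 for plantaris. Fbp2, the muscle fructose-bisphosphatase, came next after Slc16a3, at -2.77 and 3.47. Both folds were taken against the same normal soleus array, which ties them together. Slc16a3 was also chosen for its large changes, so its place here is a description.

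The genes nearest to each of the 7 were found by the straight distance between their pairs of folds, over 3 arrays. For Slc16a3 they were Aqp4 at 0.88 log2 units, Fbp2 at 1.50 and Gapdh-ps1 at 1.76. The last is a pseudogene whose probe may also read Gapdh. For Emb they were Lrrn1 at 0.74, a leucine-rich repeat membrane protein, Tph1 at 1.03, tryptophan hydroxylase, and Ctxn3 at 1.06. For both genes 0 others lay within 0.5 units. The other 5 genes lay among many, so their nearest genes single out nothing. Within 0.5 units there were 201 genes around Slc16a1, with Or1f26, Optn and Lyzl6 nearest, and 636 around Bsg, with Sh3bgrl1, Klhdc9 and Lrrc17 nearest. There were 2517 around Slc2a1, with Coq8b, Epha4 and Jam3 nearest. There were 852 around Slc2a3, with Gtpbp3, Tatdn3 and Sars2 nearest. There were 889 around Slc2a4, with Cdadc1, Car4 and Car9 nearest.

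The genes named here beside Emb and Slc16a3 on their chromosomes did not share their folds. Up to 2 genes on either side were looked up by the order of RefSeq genes on GRCr8. Beside Emb, on chromosome 2, Mrps30 was at -0.97 in denervated over normal soleus. No value is given for its other neighbours. Beside Slc16a3, on chromosome 10, Fasn was at 0.89, Csnk1d at -0.24 and Cd7 at 0.75, all inside 2-fold. Beside Slc16a1 on chromosome 2, Lrig2 was at 0.42 and Ppm1j at -4.13, so that a second gene there was far lower too. Beside Bsg, on chromosome 7, Gzmm was at 1.25, Hcn2 at -1.36, Polrmt at -0.95 and Cdc34 at -0.56. Of these, only Gzmm was higher, as Bsg was.

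Most other SLC16 carriers were within 2-fold, as were most of all genes, and the few beyond it lay in both directions. Where a gene was well above background on 1 array only, its fold is a bound, written as at least or at most. Beside the counts of this and the following lists stand the shares of all genes past 2-fold. These were 8.73% higher and 13.4% lower in denervated over normal soleus. They were 5.71% and 6.11% in plantaris over normal soleus, and 12.0% and 16.7% in denervated soleus over plantaris. Of 12 other SLC16 genes, 9 were measured in denervated over normal soleus, 1 of them higher by 2-fold or more and 2 lower, with a median of -0.71. Slc16a5 was well above background in the normal soleus alone and was at most -2.23. Slc16a4 was so in the denervated soleus and not in the normal one, and was at least 2.51, while Slc16a13 was at 0.98 ± 0.26. After normexp background correction Slc16a4 was at 0.61 and Slc16a5 at -0.95, both inside 2-fold.

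Of the same 9 genes, 1 was higher and 2 were lower by 2-fold or more in plantaris over normal soleus, with a median of 0.29. Slc16a7 was not well above background in plantaris and was at most -2.52. Slc16a4 was at least 2.06, and Slc16a6 was at -0.79 ± 0.21. With normexp Slc16a7 (-0.79) and Slc16a4 (0.72) were inside 2-fold. Against plantaris, 1 of 9 was higher and 3 were lower in denervated soleus, with a median of -0.65. There Slc16a5 was at most -2.75, Slc16a7 at least 1.71, Slc16a11 at -1.16 ± 0.21 and Slc16a10, an aromatic amino acid carrier, at -1.03 ± 0.22. With normexp 3 of these 4 were inside 2-fold, Slc16a7 at 0.15, Slc16a11 at -0.89 and Slc16a10 at -0.93.

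Of 12 other SLC2 and sodium-coupled glucose carrier genes, 7 were measured, 2 of them higher by 2-fold or more and 2 lower in denervated over normal soleus, with a median of -0.69. Slc5a2, the sodium-coupled glucose carrier of the kidney, was at 3.14 ± 0.25, and Slc5a1, that of the gut, at -2.08 ± 0.30. Slc2a6 was at -2.60 ± 0.21 and Slc2a5, the fructose carrier, at 1.41 ± 0.33 (0.38 with normexp). Slc2a12, another glucose carrier of muscle and fat, was at -0.73 ± 0.20. Between plantaris and normal soleus 0 were higher and 1 lower, with a median of 0.49. That one was Slc2a13, the proton-coupled myo-inositol carrier, at -3.04 ± 0.21, while Slc2a5 was at 0.72 ± 0.35, Slc2a8 at 0.60 ± 0.23 and Slc2a12 at 0.59 ± 0.20. Against plantaris, denervated soleus had 2 higher and 3 lower, with a median of -0.74. Slc2a6 was at -2.97 ± 0.21, Slc5a2 at 2.65 ± 0.22, Slc2a13 at 2.35 ± 0.21, Slc5a1 at -1.84 ± 0.30 and Slc2a12 at -1.32 ± 0.20 (-0.96 with the authors' deposited values).

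**Figure D3:**
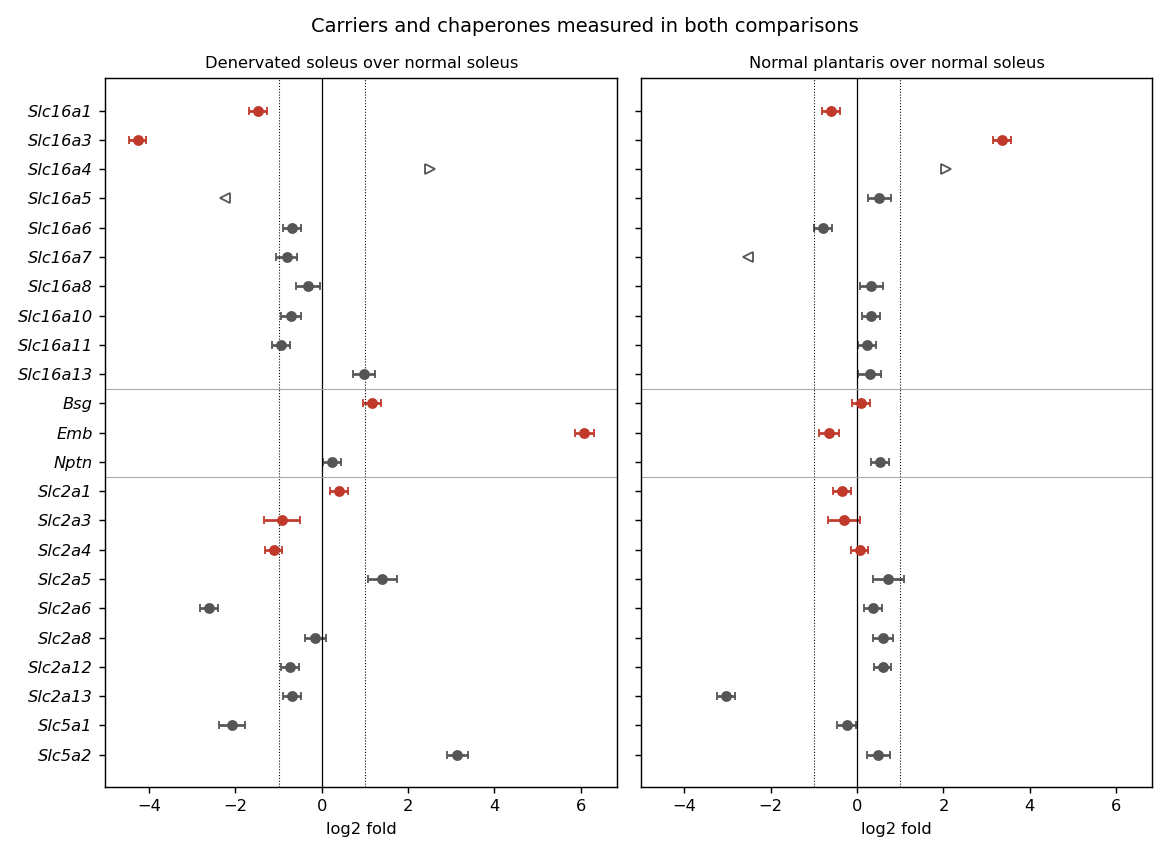
Log2 folds of SLC16 carriers, the basigin-family chaperones and the SLC2 and SLC5 carriers in denervated over normal soleus (left) and plantaris over normal soleus (right). Filled circles are folds with scanner software error bars, open triangles are bounds, and red marks the 7 genes; dotted lines mark 2-fold. Emb (6.09) and Slc16a3 (-4.27) lie beyond every other gene shown on the left, and Slc16a3 (3.36) is the highest on the right.

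Enzymes and mitochondrial carriers of lactate and pyruvate were mostly lower in the denervated soleus. Of 14 measured, 1 was higher by 2-fold or more than in normal soleus and 8 were lower, with a median of -1.45. Among all genes, 8.73% were higher and 13.4% lower in that comparison. Mpc1 and Mpc2, the subunits of the mitochondrial pyruvate carrier, were at -2.56 ± 0.20 and -1.89 ± 0.20, and the other probe of Mpc2 gave -1.57. Dlat, a subunit of the pyruvate dehydrogenase complex, was at -1.92 ± 0.20, and Pdk4, a kinase that inhibits the complex, was at -1.79 ± 0.21. The lactate dehydrogenase subunits parted. Ldhb, the heart-type subunit, was at -1.74 ± 0.20, and Ldha, the muscle-type subunit, was at -0.26 ± 0.20. Ldha, whose product makes the lactate that MCT4 exports, thus stayed inside 2-fold where Slc16a3 was 19.2-fold lower.

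The same list had 2 genes higher by 2-fold or more and 2 lower in plantaris over normal soleus, with a median of 0.23. Ldha was at 2.59 ± 0.20 and Ldhb at -2.23 ± 0.20, so that Ldha was higher beside Slc16a3 and Ldhb lower beside Slc16a1. Gpt2, the mitochondrial alanine aminotransferase, was not well above background in normal soleus and was at least 4.18. Pdk1 was at -1.55 ± 0.20, and Pdk4 was at 0.21 ± 0.21. Set against plantaris, 1 was higher and 10 were lower in denervated soleus, with a median of -1.66, and Ldha was at -2.85 ± 0.20, Gpt2 at -3.86 ± 0.34, Mpc1 at -2.29 ± 0.20 and Pdk3 at least 2.18. With normexp, the fold of Pdk3 was 0.42. Among all genes, 5.71% were higher and 6.11% lower in plantaris over normal soleus. The shares were 12.0% and 16.7% in denervated soleus over plantaris.

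Genes of proton and bicarbonate handling, which buffer the acid that travels with lactate, had 4 of 10 lower by 2-fold or more in denervated over normal soleus and 0 higher, with a median of -0.42. Car14, a surface carbonic anhydrase, was at -3.53 ± 0.21, and Car4, another, at -1.09 ± 0.20. The anion exchanger Slc4a2 was at -1.43 ± 0.20 by its brighter probe and 0.22 by the other. The bicarbonate carrier Slc4a7 was at -1.07 ± 0.23, and Car3, the cytosolic carbonic anhydrase of slow fibres, was at -0.24 ± 0.20. With the authors' deposited values Car4 (-0.85) and Slc4a7 (-0.83) were inside 2-fold. Among all genes, 8.73% were higher and 13.4% lower by 2-fold or more in denervated over normal soleus.

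For plantaris over normal soleus 3 of the 10 were lower and 0 higher, with a median of -0.09. Slc4a3, an anion exchanger, was at -4.06 ± 0.20, Car3 at -2.09 ± 0.20, and Slc4a7 at -1.14 ± 0.23 (-0.62 with normexp). For denervated soleus over plantaris 2 were higher and 4 lower, with a median of -0.20. Slc4a3 was at 4.45 ± 0.20, Car14 at -4.09 ± 0.21, Car3 at 1.85 ± 0.20 and Slc4a2 at -1.75 ± 0.20 by its brighter probe. The other probe of Slc4a2 gave 0.68, and the mean of both, -0.53, was inside 2-fold. Among all genes, 5.71% were higher and 6.11% lower in plantaris over normal soleus. The shares were 12.0% and 16.7% in denervated soleus over plantaris.

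On the glucose side, the kinases that trap glucose were lower or within 2-fold. Among all genes, 13.4% were lower by 2-fold or more in denervated over normal soleus. The share was 6.11% in plantaris over normal soleus and 16.7% in denervated soleus over plantaris. In denervated over normal soleus 2 of 4 were lower by 2-fold or more and 0 higher, with a median of -1.18. Hk3 was at most -1.50, Hk2, the main hexokinase of muscle, was at -0.86 ± 0.21 and Hk1 at 0.13 ± 0.20. Hk3 was faint, and with normexp it was inside 2-fold, at -0.76. In plantaris over normal soleus 1 of 4 was lower, the faint Hk3 at most -1.15 (-0.20 with normexp), with a median of -0.11. Hk1 was at -0.47 ± 0.21 and Hk2 at 0.26 ± 0.21. Between denervated soleus and plantaris 2 of 3 were lower, with a median of -1.12, and Hk2 was at -1.12 ± 0.21 (-0.77 with the authors' deposited values) and Hk1 at 0.60 ± 0.20.

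Most genes that move GLUT4 vesicles stayed within 2-fold, as did most of all genes. Of 16 measured in denervated over normal soleus, 2 were higher by 2-fold or more and 0 lower, with a median of 0.18. Of all genes, 8.73% were higher and 13.4% lower there. Sort1, the sorting receptor sortilin of GLUT4 vesicles, was at 1.75 ± 0.21 by its brighter probe and 2.46 by the other, and Trarg1, another vesicle protein, was at least 1.17. The fold of Trarg1 was 0 with normexp. Trip10 was at -0.75 ± 0.20, Rab13 at 0.69 ± 0.21 and Tbc1d1, a Rab GTPase-activating protein of the pathway, at 0.22 ± 0.20. Tbc1d4 had no matched probe. In plantaris over normal soleus 1 of 15 was higher and 0 lower, with a median of 0.19. It was Sort1, at 1.53 ± 0.21, while Rhoq was at 0.91 ± 0.20, Tbc1d1 at 0.66 ± 0.20 and Stxbp3 at 0.52 ± 0.20. For denervated soleus over plantaris 1 of 16 was higher and 0 lower, with a median of -0.20 (0.16 in the authors' deposited values). Trarg1 was at least 1.39 (0 with normexp), Rab13 at 0.90 ± 0.21, Rab10 at -0.87 ± 0.20 and Trip10 at -0.77 ± 0.20.

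Of the 11 genes of insulin and AMPK input, 3 were higher by 2-fold or more and 1 was lower in denervated over normal soleus, with a median of -0.22 (0.03 with the authors' deposited values). Prkag3, the AMPK gamma subunit of fast fibres, was at 3.06 ± 0.20, and its other probe gave 2.91. Pik3r1, the regulatory subunit of PI3-kinase, was at 2.49 ± 0.21 and Akt2, the kinase that drives GLUT4 to the surface, at 1.20 ± 0.22 (0.77 with normexp). Insr, the insulin receptor, was at -1.04 ± 0.22 by its brighter probe and -0.29 by the other. For plantaris over normal soleus 2 were higher and 0 lower, with a median of 0.17. Prkag3 was at 2.79 ± 0.20 and Prkaa2, the AMPK catalytic subunit of muscle, at 1.30 ± 0.20, with Prkaa1 at -0.86 ± 0.23 and Irs1 at 0.70 ± 0.22. Prkag3 was thus higher in both comparisons, where Slc16a3 was higher in plantaris and lower in denervated soleus. Set against plantaris, denervated soleus had 1 higher and 2 lower, with a median of -0.19 (0.17 with the authors' deposited values). Pik3r1 was at 2.59 ± 0.21, Prkaa2 at -1.67 ± 0.20, Insr at -1.21 ± 0.22 and Irs1 at -0.89 ± 0.21. The other probe of Insr gave -0.23. Among all genes, 8.73% were higher and 13.4% lower by 2-fold or more in denervated over normal soleus. The shares were 5.71% and 6.11% in plantaris over normal soleus, and 12.0% and 16.7% in denervated soleus over plantaris.

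Of 10 genes that control the transcription or turnover of glucose carriers, 3 were lower by 2-fold or more and 0 higher in denervated over normal soleus, with a median of -0.26. Mlxipl, the carbohydrate response factor, was at -2.05 ± 0.22, Esrra, the estrogen-related receptor of oxidative metabolism, at -1.66 ± 0.20, and Mef2d, of a factor family that binds the Slc2a4 promoter, at -1.41 ± 0.20. Epas1, a hypoxia-inducible factor, was at -0.88 ± 0.21, and Txnip, which promotes removal of GLUT1 from the surface, at -0.01 ± 0.20. In plantaris over normal soleus 0 of 9 passed 2-fold in either direction. Their median was 0.04, but -0.01 after quantile normalization and -0.07 in the authors' deposited values. Txnip was at 0.69 ± 0.20, Ppargc1a at 0.61 ± 0.21, Mef2a at 0.61 ± 0.21 and Epas1 at 0.43 ± 0.20. In denervated soleus over plantaris 4 of 10 were lower and 0 higher, with a median of -0.75: Mlxipl at -1.74 ± 0.22, Esrra at -1.70 ± 0.20, Epas1 at -1.31 ± 0.21 and Mef2d at -1.06 ± 0.20. With the authors' deposited values Epas1 (-0.95) and Mef2d (-0.71) were inside 2-fold. Among all genes, 8.73% were higher and 13.4% lower by 2-fold or more in denervated over normal soleus. The shares were 5.71% and 6.11% in plantaris over normal soleus, and 12.0% and 16.7% in denervated soleus over plantaris.

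Together, 100 pathway genes other than the 7 were listed, and 82 of them were measured in denervated over normal soleus. Of those, 9 were higher by 2-fold or more and 22 lower, with a median of -0.31, beside the 8.73% and 13.4% of all genes. Between plantaris and normal soleus 80 were measured, with 6 higher, 9 lower and a median of 0.24, beside the 5.71% and 6.11% of all genes. Between denervated soleus and plantaris 81 were measured, with 8 higher, 28 lower and a median of -0.44, beside the 12.0% and 16.7% of all genes.

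**Figure D4:**
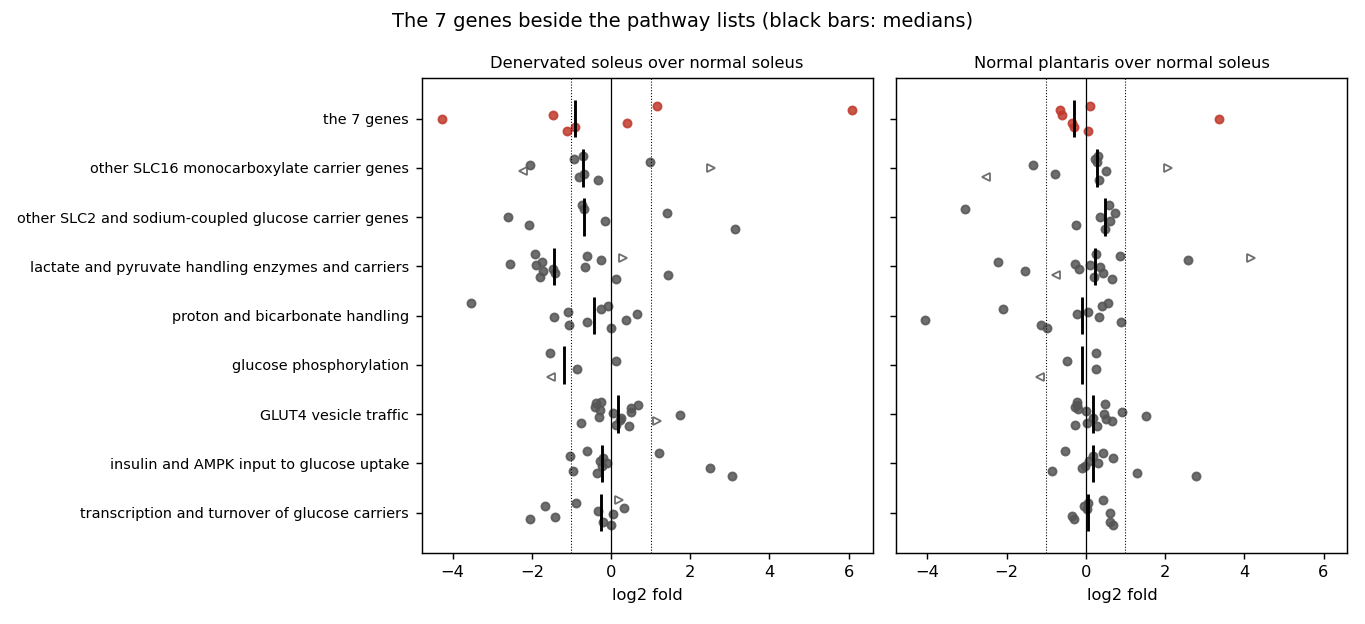
Log2 folds of the 7 genes (red) and of each pathway list (grey) in denervated over normal soleus (left) and plantaris over normal soleus (right). Each point is a gene, open triangles are bounds, black bars are medians and dotted lines mark 2-fold. The lactate and pyruvate list has the lowest median on the left (-1.45), and the GLUT4 vesicle list stays near 0 in both panels (0.18 and 0.19).

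Fibre-type markers differed between the 3 muscles. Beside the marker counts here and below stand the shares of all genes past 2-fold. These were 8.73% higher and 13.4% lower in denervated over normal soleus. They were 5.71% and 6.11% in plantaris over normal soleus, and 12.0% and 16.7% in denervated soleus over plantaris. In denervated over normal soleus 6 of 7 slow fibre markers were lower by 2-fold or more and 0 higher, with a median of -1.50, among them Casq2 (-2.98) and Atp2a2 (-1.75). After quantile normalization 4 of the 6 were inside 2-fold, Myl3 at -0.87, Myh7 at -0.77, Tnni1 at -0.60 and Tnnc1 at -0.26. Of 9 fast fibre markers 4 were higher and 0 lower, with a median of 0.41, led by Pvalb (6.02) and Actn3 (5.15). Slc16a3, which is known from fast fibres, thus went opposite to Pvalb and Actn3 in the denervated soleus. Of the 9 fast markers 3 were also below 0 there, the lowest at -0.85 and so inside 2-fold. In plantaris over normal soleus 7 of 7 slow markers were lower, with a median of -2.64, led by Tnni1 (-3.19) and Tnnc1 (-2.74). There 8 of 9 fast markers were higher, with a median of 3.11, led by Actn3 (9.59) and Pvalb (8.20), in the direction of Slc16a3. In denervated soleus over plantaris 4 of 7 slow markers were higher, with Tnni1 at 1.98 and Tnnc1 at 1.68 and a median of 1.12, and 9 of 9 fast markers were lower, with Myh4 at -5.92 and Actn3 at -4.44 and a median of -2.64. Quantile normalization put Myh2 (-0.80) and Tnnc2 (-0.37) inside 2-fold there. The part of fibre type in the folds of the carriers was not tested.

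Against the normal soleus, the skeletal muscle markers Acta1, Ckm and Des were lower in the denervated soleus. The denervation markers were higher, as Emb was. The 3 measured skeletal muscle markers were all at least 2-fold lower in denervated over normal soleus, with a median of -1.48, led by Acta1 (-2.44) and Ckm (-1.48). Quantile normalization put Ckm at -0.85 and Des at -0.77. All 6 denervation markers were higher, with a median of 3.43, led by Chrng (4.72), the fetal acetylcholine receptor subunit, and Myod1 (4.35). Their summed signal, in multiples of the array's 75th percentile, was 94.6 in denervated soleus, 7.04 in plantaris and 11.7 in normal soleus. In plantaris over normal soleus 0 of 3 skeletal muscle markers passed 2-fold, with a median of 0.25 (-0.04 with quantile normalization), Ckm at 0.97 and Acta1 at 0.25, and 1 of 6 denervation markers was higher and 4 lower, with a median of -1.54, Chrnd at -3.16 and Myod1 at 2.03. In denervated soleus over plantaris the 3 muscle markers were lower (median -2.45, Acta1 -2.69, Ckm -2.45; Des -0.72 with quantile normalization), and the 6 denervation markers higher (median 4.21, Chrng 6.20, Chrna1 5.22).

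Markers of fat and connective tissue were higher in the denervated soleus as well. Of 5 measured adipocyte markers 4 were at least 2-fold higher than in normal soleus, with a median of 2.68, led by Adipoq (3.65) and Cidec (2.83). Their summed signal was 67.7 in denervated soleus, 13.0 in plantaris and 15.4 in normal soleus, and Lep was not well above background on any array. Of 9 fibroblast and tendon markers 3 were higher and 0 lower, with a median of 0.90, led by Comp (2.77) and Fmod (2.11). Their summed signal was 246 in denervated soleus, 205 in plantaris and 106 in normal soleus. The part of these cells in the higher signals of Emb, Bsg and Slc2a1 and in the lower signal of Slc2a4, a gene of fat as well as muscle, was not tested.

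Of the vessel, blood and nerve lists, 0 of 11 macrophage markers passed 2-fold in denervated over normal soleus, with a median of 0.26, Mrc1 at 0.63 and Adgre1 at 0.59. Their summed signal was 59.1 in denervated soleus, 37.8 in plantaris and 55.2 in normal soleus. Of 7 endothelial markers 3 were lower and 0 higher, with a median of -0.39, Cdh5 at -2.30 and Kdr at -1.39, and a summed signal of 7.73 in denervated soleus, 11.4 in plantaris and 13.9 in normal soleus. Slc16a1 and Slc2a1 are also known from endothelial cells. Of 3 blood cell markers 0 passed 2-fold, with a median of 0.46, Slc4a1 at 0.65 and Alas2 at 0.46. Their summed signal was 109 in denervated soleus, 78.6 in plantaris and 107 in normal soleus, and Epb42 was not well above background on any array. Of 9 Schwann cell and perineurial markers 2 were higher and 4 lower, with a median of -0.59, S100b at 2.21, and a summed signal of 10.2 in denervated soleus, 6.84 in plantaris and 7.16 in normal soleus. With normexp Ngfr (0.39) and Prx (-0.74), counted among these, were inside 2-fold. Of 2 lymphocyte markers 0 passed 2-fold, with Cd3d at -0.99 and Cd4 at 0.21, while Cd3e, Cd8a and Cd79b were not well above background on any array. Of 3 satellite cell markers 1 was higher, Calcr at least 1.72 (0.28 with normexp), with Cdh15 at 0.51, and Pax7 was not well above background on any array. The part of these cells in the 7 folds was not tested.

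Markers of other cells were also compared with plantaris. Between plantaris and normal soleus, 5.71% of all genes were higher by 2-fold or more and 6.11% lower. In denervated soleus over plantaris the shares were 12.0% and 16.7%. In plantaris over normal soleus, 0 of 5 adipocyte, 11 macrophage, 3 blood cell and 2 lymphocyte markers passed 2-fold. Their medians were -0.22, -0.56, -0.45 and 0.18. All 11 macrophage markers were below 0 in plantaris over normal soleus. Of 7 endothelial markers 1 was lower (Cdh5, -1.71) and of 8 Schwann cell and perineurial markers 1 was lower, with medians of -0.23 and -0.01. Of 9 fibroblast and tendon markers 2 were higher (Col1a1 1.59, Fmod 1.36), with a median of 0.08, and of 3 satellite cell markers 1 was higher (Cdh15, 3.50). In denervated soleus over plantaris 4 of 5 adipocyte (Adipoq 3.41, Retn 2.90), 4 of 9 fibroblast and tendon (Comp 2.14, Postn 1.55) and 3 of 11 macrophage markers (Mrc1 1.43, Adgre1 1.12) were higher and 0 lower, with medians of 2.66, 0.96 and 0.81. With normexp the 3 macrophage markers were inside 2-fold (Mrc1 0.08, Adgre1 0.85, Cd163 0.95), and median centring put 2 of the 4 fibroblast markers inside it (Col3a1 0.96, Pdgfra 0.93). Of 7 endothelial markers 2 were lower there (Flt1 -1.41, Kdr -1.36), and of 9 Schwann cell and perineurial markers 3 were higher and 3 lower, with medians of -0.06 and 0.24. Mbp was at -2.54 by its brighter probe and 1.19 by the other, and with normexp Ngfr (0.32) and Prx (-0.80) were inside 2-fold. Of 2 lymphocyte markers 1 was lower (Cd3d, -1.29, or -0.93 with the authors' deposited values), of 3 satellite cell markers 1 was higher (Calcr, 1.37, or 0.05 with normexp) and 1 lower (Cdh15, -2.99), and 0 of 3 blood cell markers passed 2-fold (median 0.87).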

How the data were processed

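Total RNA (0.1 µg an array, per the labels' protocols) was labelled with Cy3 and hybridised to 3 one-colour arrays, 1 a group. Arrays were quantified with Agilent Feature Extraction 10.10.1.1, per the submitters' processing notes. Per the file headers, the processed signal is an intensity that the software had subtracted for background, with no normalization between arrays, and other columns hold flags of 0 or 1 for outlier, saturated and well above background spots. The value table that the authors deposited also holds an intensity, equal to the processed signal times 1 factor an array (1.41 for denervated soleus, 1.80 for plantaris, 1.60 for normal soleus), for a reason not stated in the sources used here. It was used as an alternative.

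Probes were named through RefSeq accessions (18005 of 30367 matched, for 15168 genes). The log2 processed signal was centred, array by array, on its 75th percentile over 58717 non-control spots. Outlier spots (467 to 569 an array) were left out, repeat spots were averaged, and at least 50% of a probe's spots had to be well above background for the probe to be called so. The brightest probe stood for a gene. A gene was measured in a comparison if well above background on at least 1 of its 2 arrays. Where it was so on 1 only, the fold is a bound ("at least"), taken against the faintest signal well above background or the dim signal itself, whichever was brighter. The 2-fold limit goes by size alone, and no test across samples was possible with 1 array a group.

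The 7 genes and the 21 gene lists were chosen with earlier results of these data known. Named were all 7 genes, the 4 largest folds of each pathway list in each comparison, the 2 largest of each cell type list, the 3 nearest genes to each of the 7, and Nptn, Ldha, Ldhb, Slc16a7, Slc2a12, Hk2, Tbc1d4, Tbc1d1, Pdk4, Car3 and Txnip. Some genes that this rule takes are not reported here. Other genes, such as neighbours on a chromosome, were named after their values were seen. In all, 8 alternatives were run, among them normexp background correction with an offset of 50, for which the median spot signal replaced the planned mean, which was not used here. The steps were tested on simulated data. Python 3.11.15, pandas 2.3.3, numpy 2.4.6, matplotlib 3.10.9, R 4.3.3 and limma 3.58.1 were used. Promoter windows came from RefSeq on GRCr8, and the arrays were designed on an older assembly.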

Additional observations from a re-analysis of the deposited data

How the results depend on the processing

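Of the 168 folds of the 7 genes under 8 alternatives, 143 stayed within the measurement error of the reported fold and 0 of those past 2-fold changed sign. Averaging over probes, keeping outlier spots and changing the background filter could not move these folds. Each of the 7 genes had 1 probe, no outlier spot and a signal well above background on all 3 arrays. The 143 therefore overstates how stable the folds are. The 25 that moved came from normexp, quantile normalization and the authors' deposited values. For Slc16a3 the fold ran from -4.28 to -4.01 in denervated over normal soleus and from 3.08 to 3.42 in plantaris over normal soleus. For Emb it ran from 5.38 to 6.33 in denervated over normal soleus, lowest with normexp. For Slc16a1 it ran from -1.51 to -1.23 and for Bsg from 1.14 to 1.49, in the same comparison. Of the 10 folds of the 7 genes past 2-fold, 3 came inside it under some alternative: both of Slc2a4 with quantile normalization and the authors' deposited values, and that of Bsg in denervated soleus over plantaris with median centring (0.99). This left 1 of the 7 genes at least 2-fold higher there with median centring, and 1 at least 2-fold lower with quantile normalization or the authors' values. The folds inside 2-fold whose sign turned were those in plantaris over normal soleus of Slc2a3 with normexp (0.01), of Bsg with the authors' values (-0.02) and of Slc2a4 with quantile normalization and the authors' values (-0.05 each). Of 187 folds past 2-fold of other named genes, 56 came inside it under some alternative, most often with normexp (31) and the authors' values (20), and 0 changed sign. Counts over all genes moved by over 1.5 times with normexp and with the authors' values. With normexp there were 367 higher and 1001 lower in denervated over normal soleus (988 and 1518 as reported), 309 and 282 in plantaris over normal soleus (629 and 673), and 504 higher in denervated soleus over plantaris (1363). The authors' values gave 1568 higher in denervated over normal soleus, and 2456 higher and 1213 lower in denervated soleus over plantaris (1899 lower as reported). They moved the median of all genes to 0.26, -0.08 and 0.36 in denervated over normal soleus, plantaris over normal soleus and denervated soleus over plantaris. Asking for a signal well above background on both arrays left 433 lower in plantaris over normal soleus. The cause of these shifts was not tested. No paired analysis was possible because each group has 1 array, and no array could be left out for the same reason. Faint probes, among them Slc2a3, Slc16a4, Slc16a7 and Hk3, are the least certain.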
